A study of Mus musculus with 6 samples.

Results

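The RNAs described here are long noncoding transcripts that share no protein product: Malat1 and Neat1, which are retained in the nucleus, and a group of spliced RNAs whose introns hold small nucleolar RNAs (snoRNAs). They were chosen by gene symbol from a list of 10, and 9 of the 10 were found among the 14490 genes of the expression table. Snhg3 was not analysed here. The table came from poly(A) mRNA sequencing of NK cells sorted from the spleens of C57BL/6 mice, in 3 WT samples (Mettl3fl/fl) and 3 cKO samples (Ncr1Cre-Mettl3fl/fl). Both genotypes carried the floxed Mettl3 allele, and only the cKO mice carried Cre expressed from the Ncr1 locus, which is active in NKp46+ cells. The study's methods give the age of its mice in weeks, as 1 range of young mice for all experiments and not for single samples. Whether a sample came from 1 mouse or from a pool is not given in the sources used here. The p-values therefore measure only the spread between these samples, which may be technical.

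Malat1 is among the most abundant nuclear RNAs of mammalian cells. It gathers at nuclear speckles, the stores of splicing factors, and is also a well-known carrier of N6-methyladenosine (m6A), the mark that METTL3 writes on RNA. Neat1 is the scaffold of paraspeckles, nuclear bodies that are built on its long isoform and held by RNA-binding proteins such as NONO and SFPQ. In snoRNA host genes the exons serve mainly as carriers: the snoRNAs are cut from the introns and guide chemical modification of ribosomal RNA, while the spliced host RNA is exported, engages ribosomes and, for Gas5 and several of the Snhg genes, is degraded by nonsense-mediated decay. Many host genes begin transcription at a terminal oligopyrimidine tract, a run of C and T shared with ribosomal protein genes. Neither m6A nor protein was measured in these files.

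The sequences at the annotated starts differ in their runs of C and T. The windows run from 10 bases before to 20 bases from the annotated start on, in RefSeq's promoter table for GRCm38.p6, and were taken for 7 of the 9 RNAs, all but Neat1 and Snhg6. Capitals mark the longest unbroken run of C and T that reaches within 5 bases of the start, and all sequences are 5′ to 3′ on the gene's strand.
Snhg1, chr19:8723477-8723506, plus strand: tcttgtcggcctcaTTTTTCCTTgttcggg
Snhg12, chr4:132308668-132308697, plus strand: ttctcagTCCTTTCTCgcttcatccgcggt
Snhg8, chr3:123508317-123508346, minus strand: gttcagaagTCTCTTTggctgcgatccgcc
Gas5, second start, chr1:161035156-161035185, plus strand: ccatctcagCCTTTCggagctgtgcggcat
Gas5, first start, chr1:161034591-161034620, plus strand: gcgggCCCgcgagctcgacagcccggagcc
Snhg15, chr11:6528741-6528770, minus strand: ctgtgaccgtaaCTTTaagcacacgtgagc
Snhg5, chr9:88522878-88522907, minus strand: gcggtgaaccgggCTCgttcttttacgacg
Malat1, chr19:5802653-5802682, minus strand: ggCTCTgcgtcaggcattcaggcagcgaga

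The runs of Snhg1 and Snhg12 were 9 bases long, a length reached by 5.62% of all 32851 windows. The Snhg8 run had 7 bases, reached by 13.4% of windows, and the run at the second Gas5 start had 6, reached by 21.0%. The runs of Snhg15 and Malat1 had 4 bases, reached by 48.7% of windows, and those of Snhg5 and the first Gas5 start had 3, the median of all windows, reached by 67.8%. The runs of Malat1 and of the first Gas5 start lie before the start itself, and those of Snhg1, Snhg15 and Snhg5 begin after it. The runs of Snhg12, Snhg8 and the second Gas5 start span it. A run is a description of these letters at an annotated start, which need not be the start used in NK cells. Of the 8 full windows of 300 bases, only that of Snhg15 held CACGTG, the palindromic E-box motif, which 7.15% of all windows held.

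The last 30 bases of Neat1 and Malat1 are shown because the libraries were made from poly(A) RNA and the isoforms of Neat1 end differently. The ends are from GENCODE M21 on GRCm38, minus strand, with the polyadenylation signal AATAAA in capitals where it occurs.
Neat1, short isoform, chr19:5842307-5842336: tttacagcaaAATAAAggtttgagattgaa
Neat1, long isoform, chr19:5824708-5824737: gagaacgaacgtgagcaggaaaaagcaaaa
Malat1, chr19:5795690-5795719: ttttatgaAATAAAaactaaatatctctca

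The short Neat1 isoform, 3004 bases in this annotation, held the signal in its last 30 bases. The long isoform, 20771 bases, did not, and its end is known to be made by cleavage at a tRNA-like structure and kept without a poly(A) tail. The exons of the short isoform lie within the long one, so a count per gene cannot separate them, and poly(A) selection may count them unequally. The mature end of Malat1 is likewise made by such a cleavage. Its counts in poly(A) libraries therefore need not follow its level in the cells.

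In the order of the replicate numbers, which is kept for all values below, Mettl3 stood at 1303, 1258 and 1192 normalized counts in WT and at 297, 299 and 405 in cKO, as the labels have it. A normalized count is the number of reads of a gene divided by the sample's size factor. Between 55965515 and 71464042 reads per library fell on listed genes. The summed CPM (reads of a gene scaled to a common library total) of 8 NK markers ran from 10992 to 11368 in WT and from 11008 to 11274 in cKO, although 2 of the 8 were higher and 5 lower. The sums of 5 B-cell markers ran from 9.30 to 10.4 in WT and from 14.9 to 15.5 in cKO, with 4 of the 5 higher in cKO. The sums of 5 T-cell markers ran from 26.1 to 28.8 in WT and from 21.0 to 23.9 in cKO, where Cd3g was the 1 gene called (lower, −0.75) and Cd8a and Cd3e had values above 0 (0.66 and 0.15). Those of the 4 myeloid markers ran from 104 to 112 and from 107 to 118. The erythroid markers, 3 genes, summed to between 9.76 and 10.8 CPM in WT and between 8.52 and 11.3 in cKO. The part of these traces of other cells in the differences below was not tested. In such bulk samples, fewer cells of a type and less RNA per cell cannot be told apart.

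Between the genotypes, the mean of Neat1 fell by 19.7% in cKO, that of Snhg15 fell by 7.82% and that of Snhg8 rose by 16.2%. These 3 of the 9 RNAs, 1 higher and 2 lower, passed the test, a limma fit across all 14490 genes at a Benjamini-Hochberg adjusted p under 0.05. Malat1, Gas5, Snhg1, Snhg5, Snhg6 and Snhg12 did not pass. The 3 of 9, 33.3%, stood beside 36.6% of all genes called, of which 17.8% were higher and 18.8% lower in cKO. Among the 5390 genes with a mean at or above that of the lowest of the 9 RNAs, 54.3% were called, 1182 higher and 1743 lower. The median log2 fold change of the 9 RNAs, cKO over WT, was −0.02 and the median size of the change 0.07. The median size was 0.17 over all genes and 0.11 over the 5390 genes at or above the lowest of the 9 RNAs.

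**Figure D1:**
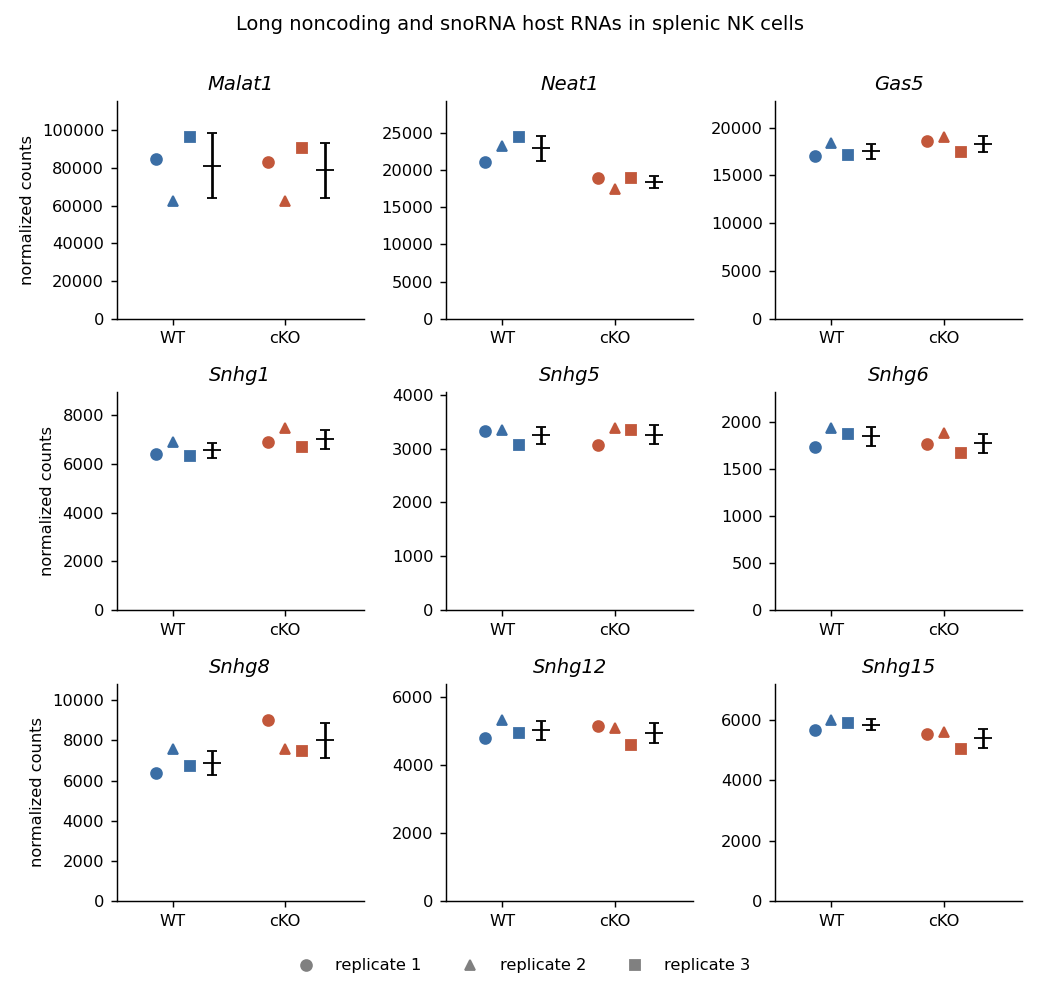
Normalized counts of the 9 RNAs in each sample (vertical axes from 0, 1 panel per gene), with WT in blue and cKO in red, a symbol shape per replicate, and the mean with SD (n = 3) in black beside the points. Neat1 and Snhg15 are the panels in which every cKO point lies below every WT point, and Malat1 has the widest spread within each genotype.

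Neat1 lies on chromosome 19 from 5824708 to 5845478 of the minus strand and is annotated as a lincRNA. Its normalized counts were 21097, 23257 and 24450 in WT, against 18880, 17446 and 18945 in cKO. All 3 cKO samples lay below all 3 WT samples, a separation that 45.7% of all genes showed in one direction or the other. On average WT held 22935 ± 1699 and cKO 18424 ± 847 normalized counts (SD, n = 3). The log2 fold change was −0.31 (SE 0.0411), with a 95% confidence interval from −0.40 to −0.23 and a limma adjusted p of 8.47e-07. The exact permutation test gave p = 0.1, the smallest two-sided p that 3 against 3 samples allow. Under the 13 alternative settings the log2 fold change ran from −0.37 to −0.26 and the adjusted p stayed at or below 4.73e-05.

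The genes on both sides of Neat1 had their own values. Malat1, on the same strand, lies 22035 bases away. On the other side Frmd8, a FERM-domain protein gene 4223 bases away, rose from 4427 ± 243 to 5053 ± 266 normalized counts (SD, n = 3), a log2 fold change of 0.19 (SE 0.0447, limma adjusted p 0.00129). The difference between Neat1 and Malat1 was tested on their ratio within each library. The Neat1 to Malat1 ratio was 0.248, 0.371 and 0.253 in WT, against 0.227, 0.279 and 0.208 in cKO. The groups overlapped, and the exact permutation test gave p = 0.4 (adjusted p = 0.4 over the 3 ratios tested). With 3 against 3 samples this test cannot go below 0.1, so it leaves unresolved whether the 2 RNAs responded differently. The Neat1 to Frmd8 ratio was 4.49, 5.37 and 5.76 in WT and 3.68, 3.31 and 3.98 in cKO, with no overlap (exact permutation p = 0.1, adjusted p = 0.3). Every cKO sample lay below every WT sample for Neat1 and above every WT sample for Frmd8. The ratio therefore had to separate, and its test adds nothing to the 2 single-gene results.

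Malat1, on chromosome 19 from 5795690 to 5802672, had the highest normalized counts of the 9 RNAs and the widest spread between libraries. Its normalized counts were 84939, 62624 and 96456 in WT, against 83098, 62553 and 90931 in cKO. The sample numbered 2 was lowest and the sample numbered 3 highest in both genotypes, and the genotypes covered nearly the same range. The means were 81340 ± 17201 (SD, n = 3) and 78861 ± 14656 (SD, n = 3). The log2 fold change was −0.04 (SE 0.101) with a 95% confidence interval from −0.25 to 0.17 (limma adjusted p 0.801). Leaving out WT sample 2 alone gave −0.22 with an adjusted p of 0.0337, while leaving out WT sample 3 or cKO sample 2 gave 0.09 and 0.12, neither called. The interval of the full fit rests on a variance that limma draws toward that of other genes at a similar level. Malat1 itself varied more than nearly all of those genes. The interval therefore does not settle whether Malat1 changed by as much as Neat1, and smaller changes were not resolved. The SD of log2 Malat1 within a genotype was 0.302, second highest of the 1297 genes with a mean of at least 10000 normalized counts, whose median SD was 0.0361.

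**Figure D2:**
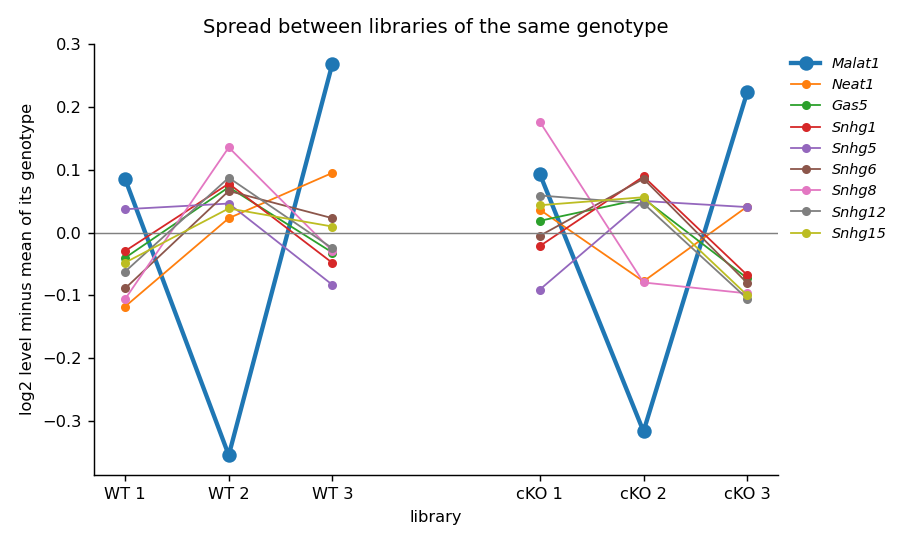
Log2 level of each RNA in each library minus the mean of its genotype (vertical axis), by library (horizontal axis), with 1 line per RNA and genotype and no error bars. Malat1, the thick line, runs from −0.35 in WT 2 to 0.27 in WT 3 and from −0.32 in cKO 2 to 0.22 in cKO 3, while the other 8 RNAs stay between −0.12 and 0.18.

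Snhg8 hosts Snora24 and lies on chromosome 3 from 123507552 to 123508404 (minus strand). Its normalized counts were 6392, 7557 and 6741 in WT, against 9021, 7556 and 7466 in cKO. The genotypes overlapped: WT sample 2 lay just above cKO samples 2 and 3, and cKO sample 1 stood above all other libraries. On average WT held 6897 ± 598 and cKO 8014 ± 873 normalized counts (SD, n = 3). The log2 fold change was 0.21 (SE 0.0558, 95% confidence interval 0.10 to 0.33, limma adjusted p 0.00328), and the exact permutation test gave p = 0.3. Without cKO sample 1 the log2 fold change was 0.13 with an adjusted p of 0.0685, past the threshold no longer. Within libraries, the Snhg8 to Gas5 ratio was 0.375, 0.411 and 0.394 in WT and 0.486, 0.397 and 0.429 in cKO (exact permutation p = 0.2, adjusted p = 0.3), which at this number of samples does not tell whether the hosts responded differently.

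Snhg15 hosts Snora9 and lies on chromosome 11 from 6525591 to 6528760 (minus strand). Its normalized counts were 5649, 5997 and 5879 in WT, against 5543, 5592 and 5020 in cKO. All 3 cKO samples lay below the WT samples, a separation that 45.7% of all genes showed in one direction or the other. Even so, cKO sample 2 and WT sample 1 were nearly level. The means were 5842 ± 177 (SD, n = 3) and 5385 ± 317 (SD, n = 3), and the log2 fold change was −0.12 (SE 0.0419, 95% confidence interval −0.20 to −0.03, limma adjusted p 0.0273; exact permutation p = 0.1). The call was lost without WT sample 2 (−0.10, adjusted p 0.0999), WT sample 3 (−0.11, 0.0645) or cKO sample 3 (−0.07, 0.239), and also when the libraries were scaled to equal totals (−0.07, 0.191). The neighbours of Snhg15 had smaller errors: Myo1g, an unconventional myosin of blood cells 4625 bases away, fell by 0.10 on the log2 scale (limma adjusted p 0.00724), and Ccm2 rose by 0.19 (limma adjusted p 9.47e-05).

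Gas5 and Snhg1, the hosts with the most annotated snoRNAs, had differences above 0 that did not pass the test. Gas5, on chromosome 1 from 161034422 to 161038539, holds 9 snoRNA loci, among them Snord47, Snord78 and Snord80. It had 17028, 18408 and 17127 normalized counts in WT and 18560, 19021 and 17423 in cKO, and WT sample 2 lay inside the cKO range. Its log2 fold change was 0.07 (SE 0.0360, 95% confidence interval −0.01 to 0.14, limma adjusted p 0.165). The start of Gas5 overlaps Zbtb37 on the opposite strand, and no source used here states that reads were counted by strand, so reads in the overlap cannot be assigned with certainty. Zbtb37 itself had a log2 fold change of 0.12 (SE 0.0674, limma adjusted p 0.165). Gm37362, an antisense RNA 2965 bases from Gas5, rose by 0.62 (SE 0.234, limma adjusted p 0.0382).

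Snhg1, on chromosome 19 from 8723475 to 8726443 with 8 snoRNA loci including Snord22, had 6420, 6916 and 6336 normalized counts in WT and 6909, 7460 and 6691 in cKO. WT sample 2 lay above cKO samples 1 and 3. The log2 fold change was 0.10 (SE 0.0418, 95% confidence interval 0.01 to 0.18, limma adjusted p 0.0689). Both hosts passed under some settings. With equal totals Gas5 reached 0.12 (limma adjusted p 0.00954) and Snhg1 0.15 (0.00508). Without WT sample 2 the values were 0.10 (0.0347) for Gas5 and 0.14 (0.0150) for Snhg1, and without cKO sample 3 they were 0.10 (0.0377) and 0.13 (0.0237). Slc3a2, a subunit of amino acid transporters, starts only 105 bases from Snhg1 on the opposite strand and had a log2 fold change of −0.01 (SE 0.0310, limma adjusted p 0.775). Stx5a, a Golgi syntaxin on the other side of Snhg1, fell by 0.37 on the log2 scale (limma adjusted p 2.47e-09).

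For Snhg5, Snhg6 and Snhg12 no difference was called. Snhg5, on chromosome 9 from 88521050 to 88522929, hosts Snord50a and Snord50b. It had 3326, 3347 and 3059 normalized counts in WT and 3058, 3372 and 3350 in cKO, a log2 fold change of 0.01 (SE 0.0477, 95% confidence interval −0.09 to 0.11, limma adjusted p 0.928). Snhg6, on chromosome 1 from 9941959 to 9944118, hosts Snord87. It had 1734, 1931 and 1874 in WT and 1763, 1877 and 1673 in cKO, a log2 fold change of −0.06 (SE 0.0565, 95% confidence interval −0.18 to 0.06, limma adjusted p 0.446). Snhg12, on chromosome 4 from 132308623 to 132311024, hosts Snora16a, Snora44, Snora61 and Snord99. It had 4793, 5317 and 4919 in WT and 5129, 5084 and 4578 in cKO, a log2 fold change of −0.02 (SE 0.0457, 95% confidence interval −0.12 to 0.07, limma adjusted p 0.734). In all 3 the genotypes overlapped, and the intervals reach from −0.18 to 0.11. The nearest listed genes of Snhg5 (Syncrip and Zfp949), Snhg6 (Sgk3 and Tcf24), Snhg8 (Prss12) and Snhg12 (Taf12 and Trnau1ap) had adjusted p-values between 0.212 and 0.973.

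**Figure D3:**
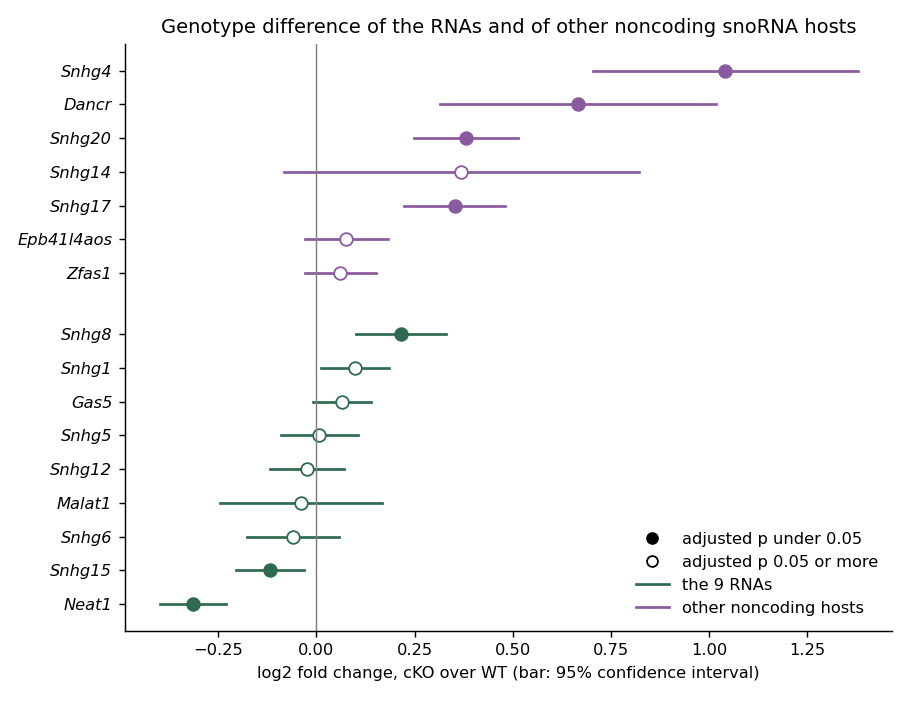
Log2 fold change, cKO over WT, with its 95% confidence interval (horizontal axis) for the 9 RNAs in green and 7 other noncoding snoRNA hosts in purple (1 row per gene), filled where the limma adjusted p was under 0.05. The 9 RNAs run from −0.31 for Neat1 to 0.21 for Snhg8, while the other hosts run from 0.06 for Zfas1 to 1.04 for Snhg4.

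For comparison between the RNAs, levels were divided by the length of each gene's exons. On this scale Malat1 had 11471 normalized counts per kilobase, ranking 269 of 14105 genes with a length, and Snhg8 followed with 8740 (rank 362). Their ranges over the 6 libraries overlapped. Gas5 had 4768, Snhg15 4131, Snhg1 2287, Snhg12 2069, Snhg5 1880, Snhg6 1578 and Neat1 996 (rank 2972). Gas5 and Snhg15 did not overlap across libraries, nor did Snhg6 and Neat1, whereas the libraries of Snhg1 and Snhg12 overlapped, as did those of Snhg12 and Snhg5. The lengths take in every annotated exon, retained introns and the full long Neat1 isoform included, so that a gene read mainly through a short isoform is placed too low. The 3 called RNAs took ranks 362, 722 and 2972.

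The longest annotated transcripts were also searched on the sense strand for GGACT, the commonest form of the sequence METTL3 methylates. Snhg15 held 2 matches in 675 bases, a density of 2.96 per kilobase, above that of 97.9% of the 13531 listed genes with a transcript of 500 bases or more. In RNAs this short the share turns on single matches. Snhg8, with 1 match in 776 bases, stood above 65.6% of those genes. Neat1 held 23 (1.11 per kilobase) and Malat1 9 (1.29 per kilobase), near the median of 1.03 over those genes. Snhg8 and Snhg6 held 1 each (1.29 and 1.23), Gas5 3 (1.17) and Snhg1 1 (0.367), and Snhg5 and Snhg12 held none. A match describes the letters and not a methylated site.

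Of 13 other noncoding snoRNA hosts, 7 were analysed, of which 4 were higher in cKO and 0 lower (57.1% called, against 36.6% of all genes), with a median log2 fold change of 0.37. Snhg4 had 117, 189 and 124 normalized counts in WT and 300, 271 and 298 in cKO, a log2 fold change of 1.04 (SE 0.164, limma adjusted p 1.29e-05). Dancr, which also acts as a differentiation-linked long noncoding RNA, had 100.3, 120.2 and 105 in WT and 175, 169.9 and 173 in cKO (0.67, SE 0.171, limma adjusted p 0.00288). Snhg20 rose by 0.38 (SE 0.0639, limma adjusted p 2.97e-05) and Snhg17 by 0.35 (SE 0.0626, limma adjusted p 6.39e-05). In these 4 genes every cKO sample lay above every WT sample, while 45.7% of all genes separated in one direction or the other. Their levels were lower than those of the 9 RNAs: the highest, Snhg17, averaged 18.5 CPM against 27.7 CPM for Snhg6.

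Among 30 protein-coding snoRNA hosts, mostly ribosomal protein and translation factor genes, 1 was higher and 16 were lower in cKO, with a median log2 fold change of −0.11. The share called, 56.7%, was near the 54.3% of all genes at or above the level of the lowest of the 9 RNAs. In that set calls leaned lower less strongly, with 1743 lower and 1182 higher, and the median log2 fold change was −0.02. Most of the protein-coding hosts stood well above that lowest level, so the set is not matched to them in level. Nop56, a core protein of box C/D snoRNPs, rose by 0.17 (limma adjusted p 0.000125), and Rpl30 and Rpl21 fell by 0.23 each (limma adjusted p 2.43e-05 and 2.48e-06). With equal totals the counts were 5 higher and 13 lower. Of 13 genes of snoRNP proteins, which package and mature the snoRNAs, 6 were higher and 2 lower (61.5% called). Shq1, a chaperone of the pseudouridine synthase dyskerin, rose by 0.58 (limma adjusted p 0.00127) and Nolc1, a nucleolar and Cajal body phosphoprotein, by 0.31 (5.51e-07). Naf1, an assembly factor of box H/ACA particles, fell by 0.23 (0.00797) and Snu13, which binds box C/D snoRNAs, by 0.15 (0.00327).

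**Figure D4:**
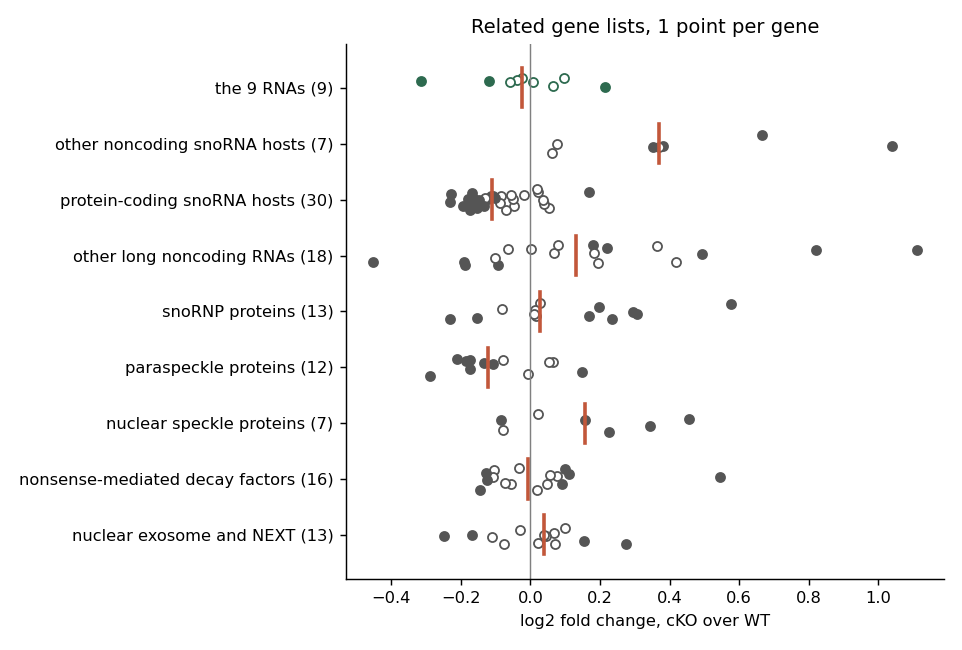
Log2 fold change, cKO over WT (horizontal axis), of every gene of the 9 RNAs and of 8 related lists (vertical axis, number of genes in brackets, vertical jitter only for visibility), filled where the limma adjusted p was under 0.05, with each list's median in red. The medians run from −0.12 for paraspeckle proteins to 0.37 for other noncoding snoRNA hosts, and that of the 9 RNAs is −0.02.

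Of the mRNAs of 12 proteins that meet Neat1 in paraspeckles, 1 was higher and 7 were lower, with a median log2 fold change of −0.12. The share called was 66.7%, against 36.6% of all genes and 54.3% of genes at or above the level of the lowest of the 9 RNAs. Nudt21, a subunit of the cleavage factor that favours the short Neat1 isoform, fell by 0.21 (SE 0.0427, limma adjusted p 0.000282), and Rbm14 rose by 0.15 (SE 0.0548, limma adjusted p 0.0346). With equal totals 3 were higher and 5 lower, and without cKO sample 2 there were 5 calls, all lower. Of the mRNAs of 7 nuclear speckle proteins, the neighbours of Malat1 in the nucleus, 4 were higher and 1 lower (71.4% called). The splicing factor Srsf1 rose by 0.46 (SE 0.0531, limma adjusted p 1.26e-07), Pnn by 0.34 (SE 0.0346, limma adjusted p 1.03e-08), and Srrm1 fell by 0.09 (SE 0.0327, limma adjusted p 0.0404).

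Genes of factors that degrade host RNAs were called in both directions, at shares near the background. Of 16 nonsense-mediated decay factors 4 were higher and 3 lower (43.8% called, against 36.6% of all genes and 54.3% of genes at or above the level of the lowest of the 9 RNAs). Smg8, a regulator of the kinase SMG1, rose by 0.55 (limma adjusted p 4.26e-08) and Upf2, which bridges UPF1 and the exon junction complex, by 0.11 (0.0474), while Smg9 fell by 0.13 (0.0397). Without WT sample 1, cKO sample 1 or cKO sample 3 these counts were 3, 4 and 3 in all. Of 13 nuclear exosome and NEXT genes, 2 were higher (Exosc4, 0.28, limma adjusted p 0.00539, and Zcchc8, 0.15, 0.00513) and 2 lower (Exosc9, −0.25, 0.00905, and Exosc5, −0.17, 0.0195), or 30.8%. Of 18 other long noncoding RNAs 5 were higher and 4 lower (50% called), or 5 in all without WT sample 2. Mir17hg, the host of the miR-17 cluster, rose by 0.49 (limma adjusted p 1.07e-06) and Pvt1 by 0.22 (0.0388), while Mir155hg, the host of miR-155, fell by 0.45 (1.53e-07) and Mir22hg by 0.19 (0.000352).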

How the data were processed

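mRNA-seq of sorted splenic NK cells was analysed, with 3 WT and 3 cKO samples grouped by the genotype in their labels. Per the labels and methods, the authors used HISAT2 (2.0.5) on GRCm38, featureCounts (1.5.0-p3) and DESeq2 (1.16.1), with versions from the submitters' processing notes (the study's methods name other versions). They deposited for each sample a signal, namely each gene's count over the sample's size factor. The deposited table also holds the authors' mean, log2 fold change with its error, a score (the Wald statistic), p-value and adjusted p-value, none of which was used.

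Values were taken as log2(value + 1), and all 14490 genes passed a minimum of 1 in at least 3 samples. Genotype was fitted by limma 3.58.1 (R 4.3.3, trended variance), with Benjamini-Hochberg adjustment of the two-sided p-values over the whole table. The fit was tested on simulated data. Members were in addition put to an exact permutation test (20 assignments, smallest p 0.1). Each library's values were multiples of the worth of a read, within a tolerance of 0.02 reads, which gave the reads on listed genes. The counts so obtained served limma-voom only, and the alternative with TMM scaling used the deposited values. Of the names, 97.3% matched GENCODE M21.

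The members and gene lists were chosen with earlier results of these data known. Genes named are all members, Mettl3, up to 2 called genes with the highest and 2 with the lowest log2 fold change per list averaging 1 CPM or more, and the nearest listed genes within 50 kb of a member, except a few that are not reported here. Alternatives were a pseudocount of 0.1, other filters, equal totals, TMM scaling, limma-voom, a replicate block and leaving out each sample.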

Additional observations from a re-analysis of the deposited data

How the results depend on the processing

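Neat1 was called with the same direction in all 13 alternatives run, Snhg8 in 12 and Snhg15 in 9. The alternative without a filter repeated the main fit, since all 14490 genes had passed the filter. A pseudocount of 0.1 could hardly move genes with counts this high. The number of the 9 RNAs called was 3 with a pseudocount of 0.1, other filters or TMM scaling, 4 with equal totals, limma-voom or the replicate block, and 2 to 5 when single samples were left out. It was 5 without WT sample 2. Over all genes, 5279 to 5543 were called with the full set of samples and 4417 to 4922 with a sample left out. Equal totals put the median difference over all genes at 0.05 (log2) and moved the split from 2576 higher and 2731 lower to 3487 and 2016.

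The sign of small differences changed. With equal totals Malat1 was at 0.0102 and Snhg12 at 0.0262. Leaving out single samples, Malat1 ran from −0.22 to 0.12, with 0.00326 without WT sample 1, 0.0950 without WT sample 3 and 0.119 without cKO sample 2. Snhg5 ran from −0.0347 to 0.0523, or 0.0566 with equal totals, with −0.0347 without WT sample 3, −0.0181 without cKO sample 2 and −0.0133 without cKO sample 3, and Snhg12 from −0.0545 to 0.0292, with 0.0202 in the absence of WT sample 2 and 0.0292 in that of cKO sample 3. The cause was not tested.

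Deviations of same-numbered samples from their genotype means correlated at −0.0239, 0.116 and 0.0447 for replicates 1, 2 and 3 over 11753 genes, so the samples were taken to share only a number. With the replicate block, 5543 genes, 4 of the 9 RNAs and 66 genes of the related lists (61 without it) were called, and Snhg1 was the RNA added (limma adjusted p 0.0223). The edgeR and DESeq2 tests planned on recovered reads were not run. With 3 samples per genotype, changes below about 0.1 on the log2 scale were mostly not resolved for these RNAs.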

Other observations

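Rows for 2 snoRNAs that lie inside the host genes were in the table. Snora16a, inside Snhg12, had means of 158 ± 28.2 normalized counts in WT and 172 ± 9.37 in cKO (SD, n = 3), a difference of 0.14 on the log2 scale (limma adjusted p 0.551). Snord87, inside Snhg6, had 20.4 ± 2.21 and 17.8 ± 3.89 (SD, n = 3), a difference of −0.20 on that scale (limma adjusted p 0.764). Of all 76 genes annotated as snoRNAs, 11 were higher and 1 lower in cKO, or 15.8%, against 36.6% of all genes (17.8% higher and 18.8% lower). These shares were not matched for level, and the share called over all genes was larger at higher levels. Reads of an intronic snoRNA and of its unspliced host cannot be told apart by these values.

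Among the 1085 listed genes with a long noncoding biotype, 124 were higher and 76 lower in cKO, or 18.4%. Among the 53 of them with a mean at or above that of Snhg6, 10 were higher and 20 lower, or 56.6%, close to the 54.3% of all 5390 genes at or above that level.

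The genes whose deviations from the genotype means most resembled those of Malat1 over the 6 samples, among genes with a mean of at least 1 CPM, were Wdr81 (Pearson r = 0.997), Gm5905 (0.997), Birc6 (0.997), Kmt2c (0.996) and Gm15602 (0.995). This measure was chosen after the values were seen, and the points share their libraries, so r is a description only. Kmt2c, a histone methyltransferase with a very long transcript, had 9405, 8377 and 10030 normalized counts in WT and 9704, 8453 and 10072 in cKO samples 1, 2 and 3. Length classes were likewise taken only among genes with a mean of at least 1 CPM. The 4282 genes with over 4000 and up to 8000 bases of exons, the class that holds Malat1, had median deviations of 0.007, −0.003 and −0.003 in WT samples 1, 2 and 3 and of −0.006, 0.01 and −0.006 in cKO samples 1, 2 and 3. Genes with over 8000 bases of exons, 1944 in number, had median deviations of 0.01, −0.02 and 0.01 in WT samples 1, 2 and 3 and of −0.002, −0.008 and 0.01 in cKO samples 1, 2 and 3. Those of Malat1 were 0.09, −0.35 and 0.27, and 0.09, −0.32 and 0.22.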
